A study of Homo sapiens with 24 samples.

Results

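The genes described here build the first stretch of the secretory pathway: the translocon of the endoplasmic reticulum (ER), signal peptidase, the COPII and COPI vesicle coats, and the cargo receptors that ride in those vesicles. They were chosen by name, 45 genes in 5 groups, and each was read from 1 probe set, the one with the highest mean over all 24 arrays. Of the 45, 43 had a probe set named for them alone, among 19775 genes on the array, and all 43 passed the intensity filter in both cell lines, where 12840 genes (VCaP) and 12823 genes (LNCaP) were tested. SEC61G and KDELR2 were not analysed here.

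The arrays came from VCaP and LNCaP, established prostate cancer cell lines that respond to androgen. VCaP carries a fusion that drives the ETS transcription factor ERG, and LNCaP a rearranged gene for the ETS factor ETV1. The 4 VCaP groups were siERG (small interfering RNA against ERG) with dihydrotestosterone (DHT, an androgen), siControl with DHT, siERG with ethanol (EtOH, the vehicle) and siControl with EtOH. The 4 LNCaP groups were shETV1 (a short hairpin against ETV1) with DHT, shControl with DHT, shETV1 with EtOH and shControl with EtOH. The titles call the LNCaP control shControl, whereas its treatment label reads siControl. All groups had RNA interference for 24 h, then 2 days of hormone depletion, then 16 h of 10 nM DHT or of EtOH. Each group held 3 arrays, lettered A to C and described as biological replicates, and the precision of each value is bounded by that number.

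Proteins bound for secretion enter the ER through the SEC61 channel, helped by SEC62, SEC63, TRAM1 and the translocon-associated protein (TRAP) complex, whose subunits are SSR1 to SSR4. Signal peptidase (SPCS1, SPCS2, SPCS3 and the catalytic subunits SEC11A and SEC11C) cuts off their signal peptides. COPII vesicles carry cargo to the Golgi, and COPI vesicles carry escaped ER proteins and receptors back. Luminal prostate cells are secretory cells, and KLK3, prostate-specific antigen, is their best known secreted product.

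In the sentences that follow, intensities are the deposited values of single arrays in the order A, B and C, and changes are differences of log2(intensity + 16) ± the standard error (SE) from limma, with n = 3 arrays per group. That offset understates the change of dim probe sets, and levels of different probe sets are not set against each other. A gene rose or fell when its adjusted p, over all genes tested in the line, was below 0.05. RNA came from whole cultures, so fewer cells with a transcript and less of that transcript per cell cannot be told apart.

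The treatments and knockdowns were visible in their usual marker genes. In VCaP, ERG read 541, 569 and 536 with siERG and DHT, against 1204, 1159.7 and 1202 with siControl and DHT. In LNCaP, ETV1 read 809, 892 and 803 with shETV1 and DHT, against 1326, 1290.4 and 1264 with shControl and DHT. By these readings both knockdowns were partial, and readings of ERG and ETV1 with EtOH are not given here. FKBP5, an androgen receptor target, rose with DHT in control cells by 1.90 ± 0.07 in VCaP and by 3.52 ± 0.07 in LNCaP, and KLK3 rose by 0.61 ± 0.06 and by 2.47 ± 0.07 in the same lines. Keratin genes KRT8 and KRT18 and the prostate gene HOXB13 were bright in all 24 arrays, whereas the leukocyte genes PTPRC and CD14 stayed below the filter in both lines. Not all markers of other cells did so: VWF and COL1A1 passed the filter in LNCaP and are described with its DHT response. The lines differed in scale, with array medians of 47.57 to 53.25 in VCaP and 42.73 to 44.78 in LNCaP and with 6 to 13 and 605 to 698 values equal to 1 per array, so no level was compared between lines. The lowest correlation between replicates was 0.989.

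With DHT, nearly the whole set rose together in VCaP. In siControl cells 38 of 43 genes rose (88.4%) and 1 fell, where 19.6% of all tested genes rose and 25.4% fell. The median change of the 43 genes was 0.42, that of all genes −0.03, and the largest gains were those of the COPII cargo adaptor SEC24D (2.35-fold) and the TRAP subunit SSR3 (2.32-fold). In siERG cells 40 of 43 rose and 0 fell, with 20.1% and 25.2% of all genes rising and falling, and the median was 0.43 for the set and −0.02 for all genes. A measure of RNA quality, the ratio of GAPDH 3′ to 5′ signal, moved with these groups, at 1.03 ± 0.007 in siERG DHT and 1.09 ± 0.02 in siERG EtOH arrays, and at 1.07 ± 0.008 in siControl DHT and 1.05 ± 0.01 in siControl EtOH arrays (SD, n = 3). With the ratio as a covariate 14 of the 40 calls in siERG cells were lost and KDELR1 was gained, leaving 27 that rose. The standard errors of that comparison were then 2.00 times as large at the median of all genes. In siControl cells 36 genes rose and 0 fell with the covariate. The siERG and siControl comparisons share no arrays, although they share the estimate of the spread, and without the covariate 37 genes rose in both. All 3 DHT arrays lay above all 3 EtOH arrays for 39 of 43 genes in siControl cells, against 25.1% of all genes, and for 40 of 43 in siERG cells, against 22.8%. SEC11A was the 1 gene with all its siControl DHT arrays below all EtOH arrays, where 31.8% of all genes lay so.

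In the translocon and TRAP, 7 of 9 measured genes rose in siControl VCaP cells and 9 of 9 in siERG cells. SSR3 read 3447, 3504 and 3467 with DHT, against 1545, 1468 and 1447 with EtOH, so every DHT array was more than 2 times every EtOH array. Its change was 1.22 ± 0.05 (adjusted p = 3.73e-08), and 1.25 ± 0.05 in siERG cells. SSR1, another TRAP subunit, read 5933, 5870.3 and 5930.1 with DHT, against 3302, 3331 and 3119 with EtOH. The groups did not overlap, and the change was 0.86 ± 0.05 (adjusted p = 3.01e-07). SEC61A1, the pore-forming subunit of the channel, rose by 0.84 ± 0.07, SSR2 by 0.60 ± 0.05, SEC61B by 0.50 ± 0.04, SEC63 by 0.49 ± 0.06 and TRAM1 by 0.21 ± 0.06. The SEC62 and SSR4 changes were 0.06 ± 0.05 (adjusted p = 0.298) and 0.12 ± 0.07 (adjusted p = 0.177). Both rose in siERG cells, SEC62 by 0.15 ± 0.05 and SSR4 by 0.21 ± 0.07. The TRAP subunits ranged widely, SSR4 having the smallest change of the 4. TRAM1 missed the threshold without siControl DHT replicate A, at 0.20 (adjusted p = 0.0551). Likewise in siERG cells SEC62 missed it without any 1 of siERG DHT replicate B, and siERG EtOH replicates A and B (0.12 to 0.14, with adjusted p = 0.0679 to 0.0974), and SSR4 without any 1 of siERG DHT replicates A and B, and siERG EtOH replicates B and C (0.15 to 0.20, with adjusted p = 0.0642 to 0.101).

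Signal peptidase divided. Of 5 genes, 3 rose and SEC11A fell in siControl VCaP cells, and 3 rose in siERG cells. SEC11C, 1 of the 2 alternative catalytic subunits, read 4983, 4671 and 5039 with DHT, against 2478, 2540.4 and 2355 with EtOH. Its lowest DHT array was far above its highest EtOH array, and the change was 0.99 ± 0.05 (adjusted p = 7.68e-08). SPCS3, an accessory subunit, read 2197, 2267 and 2267 with DHT, against 1243, 1265 and 1228 with EtOH. Again no arrays overlapped, with a change of 0.84 ± 0.04 (adjusted p = 1.15e-07). SEC11A, the other catalytic subunit, moved in the opposite direction, with 4532, 4444 and 4499 under DHT, against 4959.9, 4975 and 5051 under EtOH. The change was -0.15 ± 0.05 (adjusted p = 0.0256), and it missed the threshold whenever any 1 of the 6 siControl arrays was left out (-0.16 to -0.14, with adjusted p = 0.0529 to 0.0699). SPCS2 rose by 0.23 ± 0.05, and SPCS1 changed by -0.04 ± 0.06 (adjusted p = 0.581).

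All 12 COPII genes rose with DHT in both siControl and siERG VCaP cells. SEC13, of the outer coat, read 2270.5, 2448 and 2515 with DHT and siControl, against 1577, 1551 and 1576 with EtOH. The groups were well apart, a change of 0.61 ± 0.05 (adjusted p = 2.74e-06). SAR1B, a GTPase that starts coat assembly, read 3724, 3714 and 3934 with DHT, against 2683, 2628 and 2507 with EtOH. It too had no overlap, and rose by 0.54 ± 0.04 (adjusted p = 2.95e-06). The SEC24 paralogs, which select cargo, covered the whole range of the coat. SEC24D read 996, 1038 and 979.8 with DHT, against 419, 447 and 393 with EtOH. Each DHT array was more than 2 times each EtOH array, and SEC24D rose by 1.23 ± 0.12, SEC24A by 0.65 ± 0.08, SEC24C by 0.50 ± 0.05 and SEC24B by 0.14 ± 0.05. Among the rest, the ER exit site scaffold SEC16A rose by 0.62 ± 0.06, the outer coat gene SEC31A by 0.52 ± 0.05, the SNARE SEC22B by 0.42 ± 0.04, the inner coat genes SEC23A and SEC23B by 0.40 ± 0.07 and 0.39 ± 0.07, and SAR1A by 0.28 ± 0.05. SEC24B missed the threshold without any 1 of siControl DHT replicate C, and siControl EtOH replicates B and C (0.11 to 0.15, with adjusted p = 0.0539 to 0.107). In siERG cells SEC23A (0.22 ± 0.07) missed it without either of siERG EtOH replicates B and C, at 0.21 (adjusted p = 0.0668) and 0.22 (adjusted p = 0.0621).

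The COPI group, the coatomer subunits with ARF1 and ARF4, rose in full as well, 9 of 9 genes in siControl and in siERG VCaP cells. With the GAPDH ratio as a covariate 4 of the 9 passed in siERG cells. The 5 lost were COPB2 (0.32, adjusted p = 0.0543), COPE (0.44, adjusted p = 0.0712), ARF1 (0.71, adjusted p = 0.152), COPB1 (0.21, adjusted p = 0.219) and COPZ1 (-0.02, adjusted p = 0.919). COPG1, a coatomer subunit, read 1753, 1714 and 1806 with DHT and siControl, against 1313, 1205 and 1183 with EtOH. All DHT arrays lay above all EtOH arrays, a change of 0.51 ± 0.05 (adjusted p = 9.19e-06). ARF4, a small GTPase of the Golgi, read 7983, 7944 and 7743 with DHT, against 6069, 6198 and 5912 with EtOH, a change of 0.38 ± 0.04 (adjusted p = 3.91e-05). The other coatomer genes gained between 0.20 ± 0.06 (COPZ1) and 0.42 ± 0.07 (COPE), with COPA at 0.38 ± 0.06, ARCN1 at 0.42 ± 0.07, COPB2 at 0.35 ± 0.05 and COPB1 at 0.28 ± 0.05. For ARF1, the GTPase that recruits coatomer, the only probe set named for it alone was dim, at 83.6, 98.0 and 75.4 with DHT against 65.1, 41.8 and 46.1 with EtOH, and its change of 0.61 ± 0.15 has the widest error of the set. COPZ1 missed the threshold without either of siControl DHT replicate C and siControl EtOH replicate B, at 0.18 (adjusted p = 0.0538) and 0.17 (adjusted p = 0.0596), and ARF1 in siERG cells without siERG EtOH replicate B, at 0.45 (adjusted p = 0.0512).

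Of the 8 measured cargo receptors and p24 proteins, 7 rose in siControl and 7 in siERG VCaP cells. KDELR3, which returns escaped ER proteins, read 268, 273 and 279 with DHT and siControl, against 165, 167 and 175 with EtOH. This was a gain of 0.64 ± 0.06 (adjusted p = 6.38e-06) with no overlap. TMED10, of the p24 family, read 5023, 5039 and 5267 with DHT, against 3397, 3338 and 3399 with EtOH. TMED10 arrays were likewise apart, with a gain of 0.59 ± 0.06 (adjusted p = 1.88e-05). LMAN1 and MCFD2, which together carry coagulation factors out of the ER, rose by 0.44 ± 0.05 and 0.43 ± 0.06. TMED2 rose by 0.28 ± 0.04, LMAN2 by 0.24 ± 0.05 and KDELR1 by 0.33 ± 0.09, while TMED3 changed by 0.11 ± 0.06 (adjusted p = 0.162). In siERG cells TMED3 rose by 0.26 ± 0.06 and KDELR1 changed by 0.24 ± 0.09 (adjusted p = 0.0617). KDELR1 in siControl cells missed the threshold without siControl EtOH replicate C, at 0.30 (adjusted p = 0.0507).

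**Figure D1:**
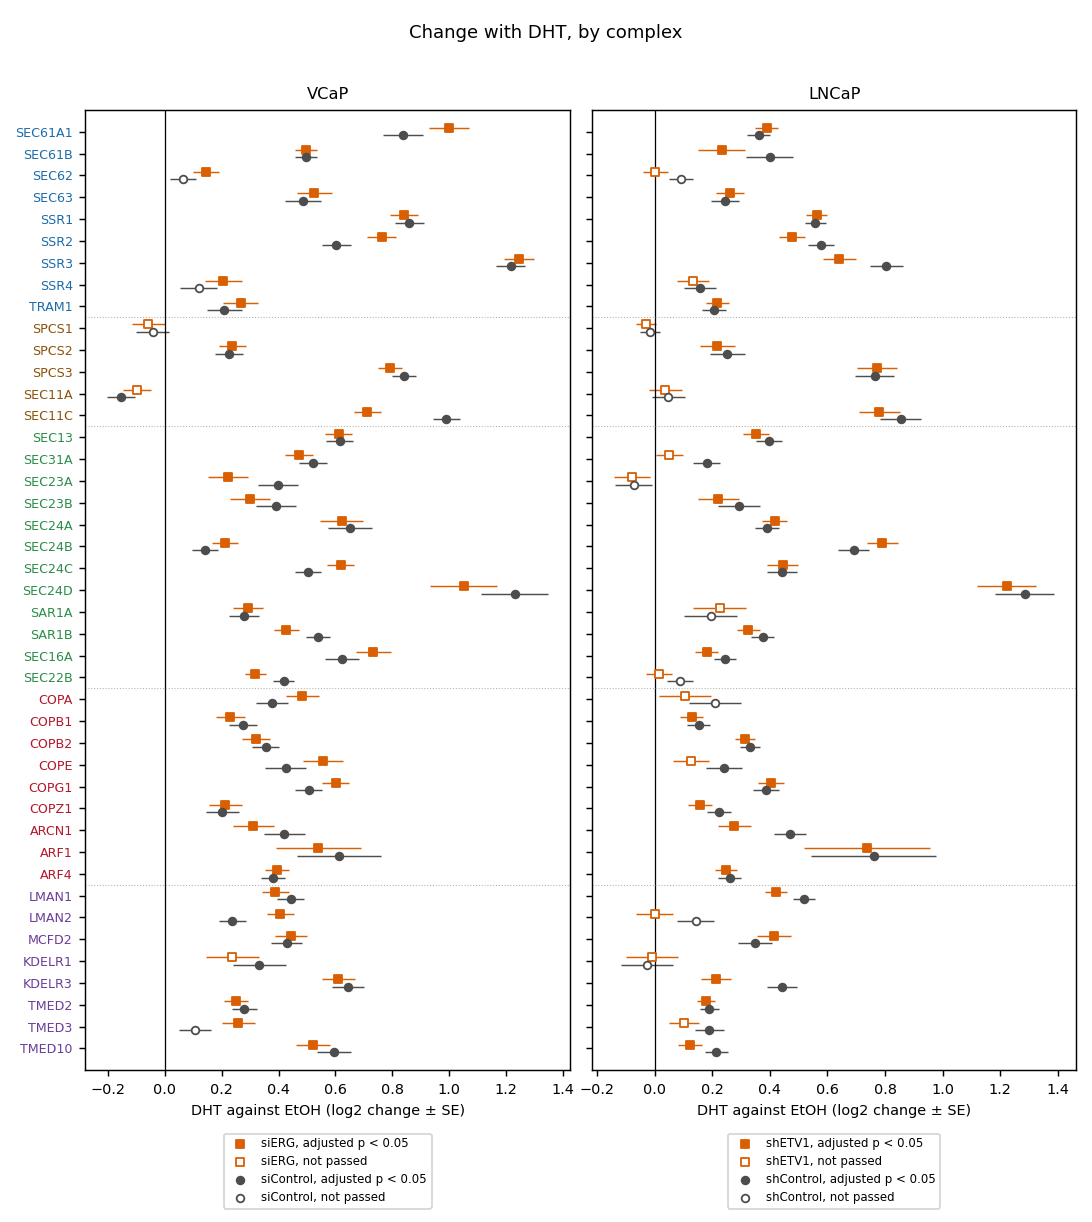
Change with DHT against EtOH (log2 units ± SE, n = 3 arrays per group) of the 43 genes by complex, knockdown cells as squares and control cells as circles, VCaP on the left and LNCaP on the right, with gene names coloured by complex. Filled marks have an adjusted p below 0.05, as do 38 genes that rose in VCaP siControl cells and 34 in LNCaP shControl cells, and nearly all marks lie right of 0.

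In LNCaP most of the set rose with DHT again. In shControl cells 34 of 43 genes rose and 0 fell, where 18.6% of all genes rose and 22.3% fell, and the median change was 0.26 for the set and −0.01 for all genes. In shETV1 cells 30 of 43 rose and 0 fell, against 18.8% and 19% of all genes, with medians of 0.23 and 0.00. All of the 30 were among the 34. All 3 DHT arrays lay above all 3 EtOH arrays for 35 of 43 genes in shControl cells, against 22.7% of all genes, and for 34 in shETV1 cells, against 25.1%. SEC24D had the largest gain again (2.44-fold), followed by SEC11C (1.81-fold) and SSR3 (1.75-fold). The summed intensity of 7 marker genes of leukocytes, endothelium, fibroblasts and muscle was 563.53 to 610.32 in shControl DHT arrays and 744.38 to 812.26 in shControl EtOH arrays, so it was lower with DHT. In shETV1 cells it was 542.96 to 595.34 with DHT and 822.1 to 833.42 with EtOH. VWF and COL1A1 fell in both, the 7 genes read above 0 throughout, and their part in the result was not tested. In VCaP the same sum was 532.23 to 591.62 with DHT and 560.51 to 599.88 with EtOH in siControl cells.

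In the LNCaP translocon and TRAP, 8 of 9 genes rose in shControl and 7 of 9 in shETV1 cells. SSR1 read 7703, 7742 and 7762 with DHT and shControl, against 5322, 5256 and 5164 with EtOH. The groups did not meet, for a gain of 0.56 ± 0.04 (adjusted p = 4.87e-07). SSR3 read 4312, 4463 and 4138 with DHT, against 2435, 2678 and 2273 with EtOH. This gain of 0.80 ± 0.06 (adjusted p = 8.6e-07) was the greatest of the complex. SSR2 rose by 0.58 ± 0.05, SEC61B by 0.40 ± 0.08, SEC61A1 by 0.36 ± 0.04, SEC63 by 0.25 ± 0.05, TRAM1 by 0.21 ± 0.04 and SSR4 by 0.16 ± 0.06, and SEC62 changed by 0.09 ± 0.04 (adjusted p = 0.108). The SSR4 call ended without any 1 of shControl DHT replicates A and C, shControl EtOH replicates A and C, the 3 shETV1 DHT arrays, and shETV1 EtOH replicate B (0.11 to 0.16, with adjusted p = 0.0521 to 0.146). In shETV1 cells, SEC61B (0.23 ± 0.08) missed the threshold without any 1 of the 3 shControl DHT arrays, the 3 shETV1 DHT arrays, and the 3 shETV1 EtOH arrays (0.22 to 0.24, with adjusted p = 0.0522 to 0.118).

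Of the 5 signal peptidase genes 3 rose and 0 fell. SEC11C read 6046, 5980.3 and 5503 with DHT in LNCaP shControl cells, against 3046, 3580.2 and 3065 with EtOH, and SPCS3 read 2444, 2199 and 2572 with DHT, against 1467, 1466 and 1294 with EtOH. Neither gene's arrays overlapped. SEC11C gained 0.85 ± 0.07 (adjusted p = 3.07e-06) and SPCS3 0.76 ± 0.07 (adjusted p = 5.96e-06). SPCS2 rose by 0.25 ± 0.06, while SPCS1 (-0.02 ± 0.03, adjusted p = 0.743) and SEC11A (0.05 ± 0.06, adjusted p = 0.551) did not pass. In shETV1 cells the same 3 genes rose, SPCS2 by 0.22 ± 0.06 and by 0.19 (adjusted p = 0.0621) without shETV1 EtOH replicate B.

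Of the 12 COPII genes, 9 rose in shControl and 8 in shETV1 LNCaP cells. SEC24D read 1139, 1276 and 1195 with DHT and shControl, against 502, 484 and 466 with EtOH. Every DHT array was more than 2 times every EtOH array, and the change was 1.29 ± 0.10 (adjusted p = 2.19e-06). SEC24B read 2099, 2104 and 2369 with DHT, against 1361, 1379 and 1305 with EtOH. Its gain of 0.69 ± 0.05 (adjusted p = 1.84e-06) placed it second in the coat. SEC24C rose by 0.44 ± 0.05, SEC13 by 0.40 ± 0.05, SEC24A by 0.39 ± 0.04, SAR1B by 0.38 ± 0.04, SEC23B by 0.29 ± 0.07, SEC16A by 0.24 ± 0.04 and SEC31A by 0.18 ± 0.05. Changes that did not pass were those of SEC23A (-0.07 ± 0.06, adjusted p = 0.391), SAR1A (0.19 ± 0.09, adjusted p = 0.117) and SEC22B (0.09 ± 0.05, adjusted p = 0.158). In shETV1 cells SEC31A changed by 0.05 ± 0.05 (adjusted p = 0.434), and SEC23B (0.22 ± 0.07) missed the threshold without any 1 of shETV1 DHT replicates B and C, and shETV1 EtOH replicates B and C (0.18 to 0.21, with adjusted p = 0.0855 to 0.109).

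Of the 9 COPI genes, 8 rose in shControl and 7 in shETV1 LNCaP cells. COPB2 read 2633, 2629.6 and 2583 with DHT and shControl, against 2092, 2033 and 2101 with EtOH. COPG1 read 1913, 1790.3 and 1921 with DHT, against 1406, 1476 and 1408 with EtOH. Both were apart in every array, COPB2 by 0.33 ± 0.03 (adjusted p = 1.92e-05) and COPG1 by 0.39 ± 0.04 (adjusted p = 3.76e-05). ARCN1 rose by 0.47 ± 0.06, ARF4 by 0.26 ± 0.04, COPE by 0.24 ± 0.06, COPZ1 by 0.23 ± 0.04 and COPB1 by 0.15 ± 0.04, and COPA changed by 0.21 ± 0.09 (adjusted p = 0.088). The dim ARF1 probe set gained 0.76 ± 0.22, and its call ended without either of shControl DHT replicate C and shControl EtOH replicate C (0.67 to 0.71, with adjusted p = 0.0516 to 0.0574). In shETV1 cells COPE changed by 0.13 ± 0.06 (adjusted p = 0.146), and calls there ended for ARF1 without any 1 of shETV1 DHT replicate A, and shETV1 EtOH replicates A and B (0.50 to 0.70, with adjusted p = 0.0599 to 0.0737), for COPB1 without any 1 of shETV1 DHT replicates A and B, and shETV1 EtOH replicates A and C (0.11 to 0.13, with adjusted p = 0.062 to 0.0945) and for COPZ1 without shETV1 DHT replicate A, at 0.13 (adjusted p = 0.0505).

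Of the 8 cargo receptors and p24 genes, 6 rose in shControl and 5 in shETV1 LNCaP cells. LMAN1 read 4938, 5146 and 4969 with DHT and shControl, against 3407, 3595 and 3481 with EtOH. KDELR3 read 365, 355 and 327 with DHT, against 261, 247 and 249.6 with EtOH. Neither overlapped, and the gains were 0.52 ± 0.04 (adjusted p = 1.09e-06) for LMAN1 and 0.44 ± 0.05 (adjusted p = 5.73e-05) for KDELR3. MCFD2 rose by 0.35 ± 0.06, TMED10 by 0.21 ± 0.04, TMED2 by 0.19 ± 0.03 and TMED3 by 0.19 ± 0.05. LMAN2 (0.14 ± 0.06, adjusted p = 0.102) and KDELR1 (-0.03 ± 0.09, adjusted p = 0.838) did not pass. In shETV1 cells TMED3 changed by 0.10 ± 0.05 (adjusted p = 0.145), and TMED10 (0.12 ± 0.04) missed the threshold without any 1 of shETV1 DHT replicates B and C, and shETV1 EtOH replicates B and C (0.10 to 0.13, with adjusted p = 0.0624 to 0.108).

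**Figure D2:**
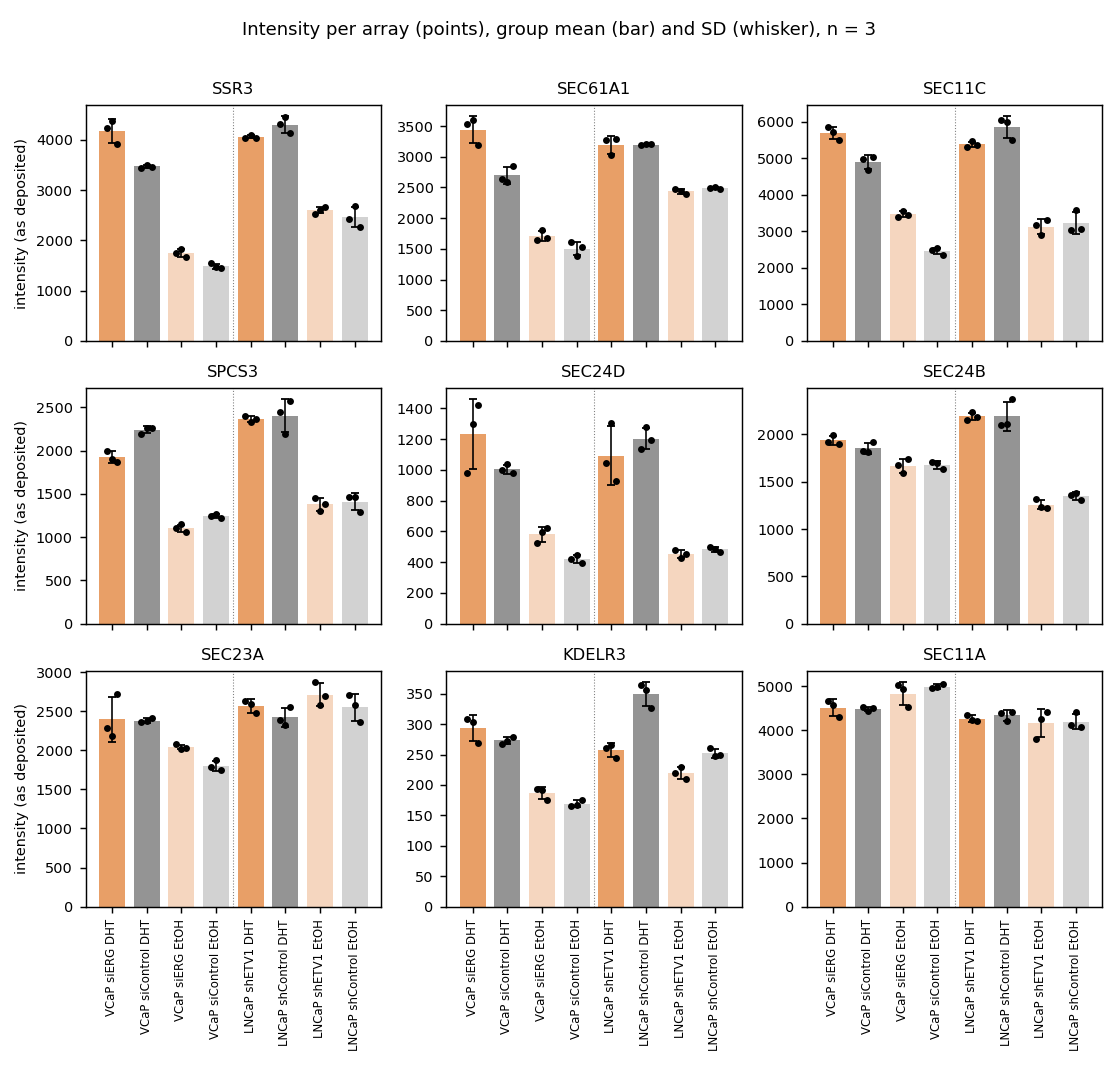
Deposited intensity of 9 genes in each of the 24 arrays (points), with group means (bars) and SD (whiskers, n = 3), VCaP groups left and LNCaP groups right of the dotted line, knockdown before control and DHT before EtOH. SSR3, SEC61A1, SEC11C, SPCS3, SEC24D, SEC24B and KDELR3 rose with DHT in the control cells of both lines, and SEC23A rose and SEC11A fell in those of VCaP.

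In the control cells of the 2 lines 32 genes rose with DHT in both, 34 having risen in LNCaP and 38 in VCaP. The DHT response differed between lines for 15 of 43 genes in a fit of all arrays. Smaller and greater refer here to the signed change in LNCaP against that in VCaP. The response was smaller in LNCaP for 13 genes and greater for 2. Of all 12305 genes tested in both lines, 14.3% were smaller in this difference and 17.6% were greater. Of the 2 greater, SEC24B rose more in LNCaP, whereas SEC11A fell in VCaP and did not pass in LNCaP. The median difference, LNCaP minus VCaP, was −0.10 for the set and 0.01 for all genes. COPII held 7 of the smaller responses, the translocon and TRAP 4 and the cargo receptors 2, while COPI held 0. An unadjusted p below 0.05 was found for 1 of the 9 COPI genes and for 5008 of all 12305 genes. Under quantile normalization 22 of the 43 genes differed, 1 greater and 21 smaller in LNCaP, with 1935 genes greater and 2411 smaller among all genes. ARF4, COPB1, COPE and COPG1 were then among them, so COPI held 4, while SEC11A was lost. In VCaP SEC24B read 1823, 1809 and 1922 with DHT, against 1703, 1693 and 1631 with EtOH, groups that lay close but did not overlap. SEC24B differed most in the direction of a greater LNCaP response, by 0.55 ± 0.07 (adjusted p = 4e-06): it gained 0.69 ± 0.05 in LNCaP and 0.14 ± 0.05 in VCaP. SEC23A, a partner of SEC24 in the inner coat, read 2383, 2319.9 and 2561 with DHT, against 2708, 2578 and 2363 with EtOH, in LNCaP. In VCaP it read 2357, 2374 and 2414 with DHT, against 1782, 1875 and 1753 with EtOH. Its LNCaP arrays overlapped and its VCaP arrays did not. SEC23A differed by -0.47 ± 0.10 (adjusted p = 0.000722), with -0.07 ± 0.06 in LNCaP and 0.40 ± 0.07 in VCaP. SEC61A1 differed by -0.48 ± 0.08 (adjusted p = 0.000112) and SSR3 by -0.41 ± 0.08 (adjusted p = 0.000309), though both rose in each line. SEC24D, with gains of 1.29 ± 0.10 in LNCaP and 1.23 ± 0.12 in VCaP, differed by 0.06 ± 0.16 (adjusted p = 0.832). The differences of 5 genes were lost without 1 array or more. That of KDELR1 missed the threshold without any 1 of shControl DHT replicates A and B, shControl EtOH replicates A and B, the 3 shETV1 DHT arrays, shETV1 EtOH replicates B and C, the 3 siControl DHT arrays, the 3 siControl EtOH arrays, siERG DHT replicate A, and siERG EtOH replicate B (-0.38 to -0.25, with adjusted p = 0.0521 to 0.144). That of SEC11A missed the threshold without any 1 of shControl DHT replicates A and C, shControl EtOH replicates A and C, the 3 shETV1 DHT arrays, the 3 siControl DHT arrays, the 3 siControl EtOH arrays, siERG DHT replicate B, and siERG EtOH replicate B (0.18 to 0.21, with adjusted p = 0.0505 to 0.0994). That of SEC24A missed the threshold without any 1 of shControl DHT replicate C, shControl EtOH replicates A and C, siControl DHT replicates A and C, and siControl EtOH replicates A and C (-0.26 to -0.20, with adjusted p = 0.0521 to 0.0885). That of SEC63 missed the threshold without any 1 of shControl DHT replicate B, shControl EtOH replicate B, siControl DHT replicates A and C, and siControl EtOH replicates A and C (-0.23 to -0.21, with adjusted p = 0.0538 to 0.0697). That of SAR1B missed the threshold without any 1 of shControl DHT replicate A, shControl EtOH replicate A, siControl DHT replicate C and siControl EtOH replicate C (-0.15 to -0.13, with adjusted p = 0.0601 to 0.0794).

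**Figure D3:**
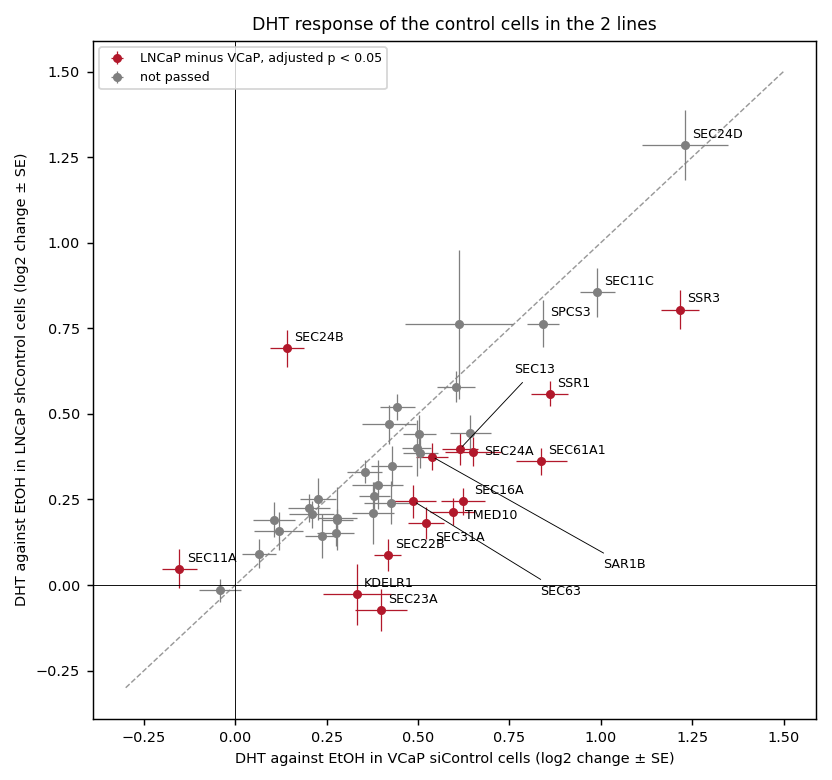
DHT response (log2 change ± SE, n = 3 arrays per group) of LNCaP shControl cells on the vertical axis and of VCaP siControl cells on the horizontal axis, 1 point per gene, with the dashed line marking equal responses. Red points are the 15 genes whose response differed between the lines, 13 below the line and SEC24B and SEC11A above it.

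Lowering ERG in part moved few of these genes. With EtOH, 5 of 43 rose and 1 fell with siERG, where 5.37% of all genes rose and 5.87% fell. With DHT, 4 rose and 1 fell, where 3.79% and 5.18% did. SSR3, SEC11C and SAR1B rose and SPCS3 fell in both, and these comparisons share no arrays, although they share the estimate of the spread. LMAN1 and SEC24D also rose with EtOH and SEC61A1 with DHT. The median change of the 43 was 0.06 with EtOH and 0.06 with DHT, and that of all genes 0.01 and 0.02. All 3 siERG arrays lay above all 3 siControl arrays for 15 of 43 genes with EtOH (17.7% of all genes) and 13 with DHT (12.6%), and below for 3 (17.4%) and 2 (12.3%).

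With EtOH, SEC11C read 3391, 3565 and 3440.3 with siERG, against 2478, 2540.4 and 2355 with siControl. The groups lay far apart, a gain of 0.49 ± 0.05 (adjusted p = 0.000152). SAR1B read 3213, 3271 and 3237 with siERG and EtOH, against 2683, 2628 and 2507 with siControl, a gain of 0.31 ± 0.04 (adjusted p = 0.00126) without overlap. SSR3 read 1756, 1819.8 and 1674 with siERG and EtOH, against 1545, 1468 and 1447 with siControl, a gain of 0.23 ± 0.05 (adjusted p = 0.0171) that was also without overlap. SEC11C and SAR1B passed whichever array was left out. SSR3 missed the threshold without any 1 of siControl EtOH replicates B and C, and siERG EtOH replicates A and B (0.20 to 0.23, with adjusted p = 0.0518 to 0.0744). LMAN1 gained 0.20 ± 0.05 (adjusted p = 0.0216), SEC24D gained 0.45 ± 0.12 (adjusted p = 0.0333) and SPCS3 fell by 0.17 (adjusted p = 0.031). LMAN1 missed it without any 1 of siControl EtOH replicate C, and the 3 siERG EtOH arrays (0.16 to 0.21, with adjusted p = 0.0609 to 0.0661), SEC24D without any 1 of the 3 siControl EtOH arrays, and siERG EtOH replicates B and C (0.41 to 0.50, with adjusted p = 0.0566 to 0.111), and SPCS3 without any 1 of the 3 siControl EtOH arrays, and siERG EtOH replicates A and C (-0.18 to -0.14, with adjusted p = 0.0626 to 0.112). The count of calls fell to 2 without siControl EtOH replicate C and to 3 without replicate B of siControl EtOH or without replicate B or C of siERG EtOH.

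With DHT, SPCS3 read 1999.6, 1910.3 and 1867 with siERG, against 2197, 2267 and 2267 with siControl. All siERG arrays were lower, a change of -0.22 ± 0.04 (adjusted p = 0.0102). SSR3 read 4235, 4370.2 and 3912 with siERG and DHT, against 3447, 3504 and 3467 with siControl, a gain of 0.26 ± 0.05 (adjusted p = 0.0104). SEC61A1 read 3532, 3594 and 3185 with siERG and DHT, against 2638, 2595 and 2854 with siControl, a gain of 0.35 ± 0.07 (adjusted p = 0.0113). Both had every siERG array above every siControl array. SEC11C gained 0.21 ± 0.05 (adjusted p = 0.019) and SAR1B 0.20 ± 0.04 (adjusted p = 0.0151). SEC11C missed the threshold without any 1 of siControl DHT replicate B, and siERG DHT replicates A and B (0.18 to 0.21, with adjusted p = 0.0635 to 0.0711), and SAR1B without any 1 of siControl DHT replicates A and B, and siERG DHT replicate A (0.18 to 0.19, with adjusted p = 0.0519 to 0.0605). The count of calls was 3 without siControl DHT replicate B and 8 without siERG DHT replicate C.

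SPCS3 was read from a probe set whose name ends in _x_at, which may bind related transcripts, and with the mean of its probe sets both falls missed the threshold, at -0.07 (adjusted p = 0.361) with EtOH and -0.14 (adjusted p = 0.0859) with DHT. SEC24D with EtOH missed it too with the mean of its 3 probe sets, at 0.18 (adjusted p = 0.158), those probe sets lying between −0.009 and 0.45. SAR1B with DHT missed it likewise (0.15, adjusted p = 0.105), and so did SSR3 with DHT when _x_at and _s_at probe sets were left out (0.16, adjusted p = 0.245) and SSR3 with EtOH on arrays centred on their median (0.18, adjusted p = 0.0554). The 3 probe sets of SPCS3 did not move alike with siERG and EtOH, 2 being lower (−0.17 each) and 1 higher (0.13), whereas all 3 rose with DHT in siControl cells, by 0.84, 0.96 and 1.09. The GAPDH ratio, given above, also moved with knockdown. With EtOH its mean was higher with siERG while that of the ACTB ratio was lower, and with DHT both were lower. With the GAPDH ratio as a covariate, 2 of the 6 calls with EtOH passed and 0 of the 5 with DHT, the standard errors being 1.48 and 1.58 times as large at the median of all genes. SEC11C and SAR1B were the 2 with EtOH.

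With ETV1 partly lowered in LNCaP, 1 gene of the set was called, KDELR3 with DHT. With EtOH, 0 of 43 genes passed limma's test, where 1.22% of all genes rose and 2.97% fell with shETV1. An unadjusted p below 0.05 was found for 2 of the 43 and for 2311 of all 12823 genes. With DHT, 0 rose and 1 fell (2.33%), where 2.68% of all genes rose and 2.5% fell, so the share that fell was near that of all genes. The gene that fell was KDELR3, which read 261, 265 and 245 with shETV1 and DHT, against 365, 355 and 327 with shControl. Its groups did not overlap, the change was -0.42 ± 0.05 (adjusted p = 0.00144), and the call held whichever array was left out. With the mean of its 3 probe sets it missed the threshold, at -0.27 (adjusted p = 0.066). With EtOH KDELR3 read 219.7, 229.8 and 209 with shETV1, against 261, 247 and 249.6 with shControl. Its arrays were again all lower with shETV1, a change of -0.19 ± 0.05 (adjusted p = 0.0811) that did not pass. Its next probe set showed −0.30 ± 0.05 with DHT and −0.05 ± 0.05 with EtOH.

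The genes next in line for shETV1 had smaller changes that did not pass. SEC16A read 1113, 1139 and 1136 with shETV1 and DHT, against 1217, 1262 and 1229 with shControl (-0.13 ± 0.04, adjusted p = 0.0935). SAR1B read 4477, 4469 and 4434 with shETV1 and DHT, against 4733, 4814 and 4864 with shControl (-0.11 ± 0.04, adjusted p = 0.158). For both, the shETV1 arrays were all lower. With EtOH, COPE read 800.1, 765 and 847 with shETV1, against 680.2, 767 and 681 with shControl (0.18 ± 0.06, adjusted p = 0.156). SSR2 read 3559, 3513 and 3484 with shETV1 and EtOH, against 3296, 3477 and 3127 with shControl (0.09 ± 0.05, adjusted p = 0.311). COPE arrays overlapped between groups, and those of SSR2 were just higher with shETV1. In all, 9 of 43 genes had every shETV1 array below every shControl array with DHT (10.6% of all genes) and 0 above (15.9%), and with EtOH 4 lay below (13.3%) and 1 above (10.8%).

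**Figure D4:**
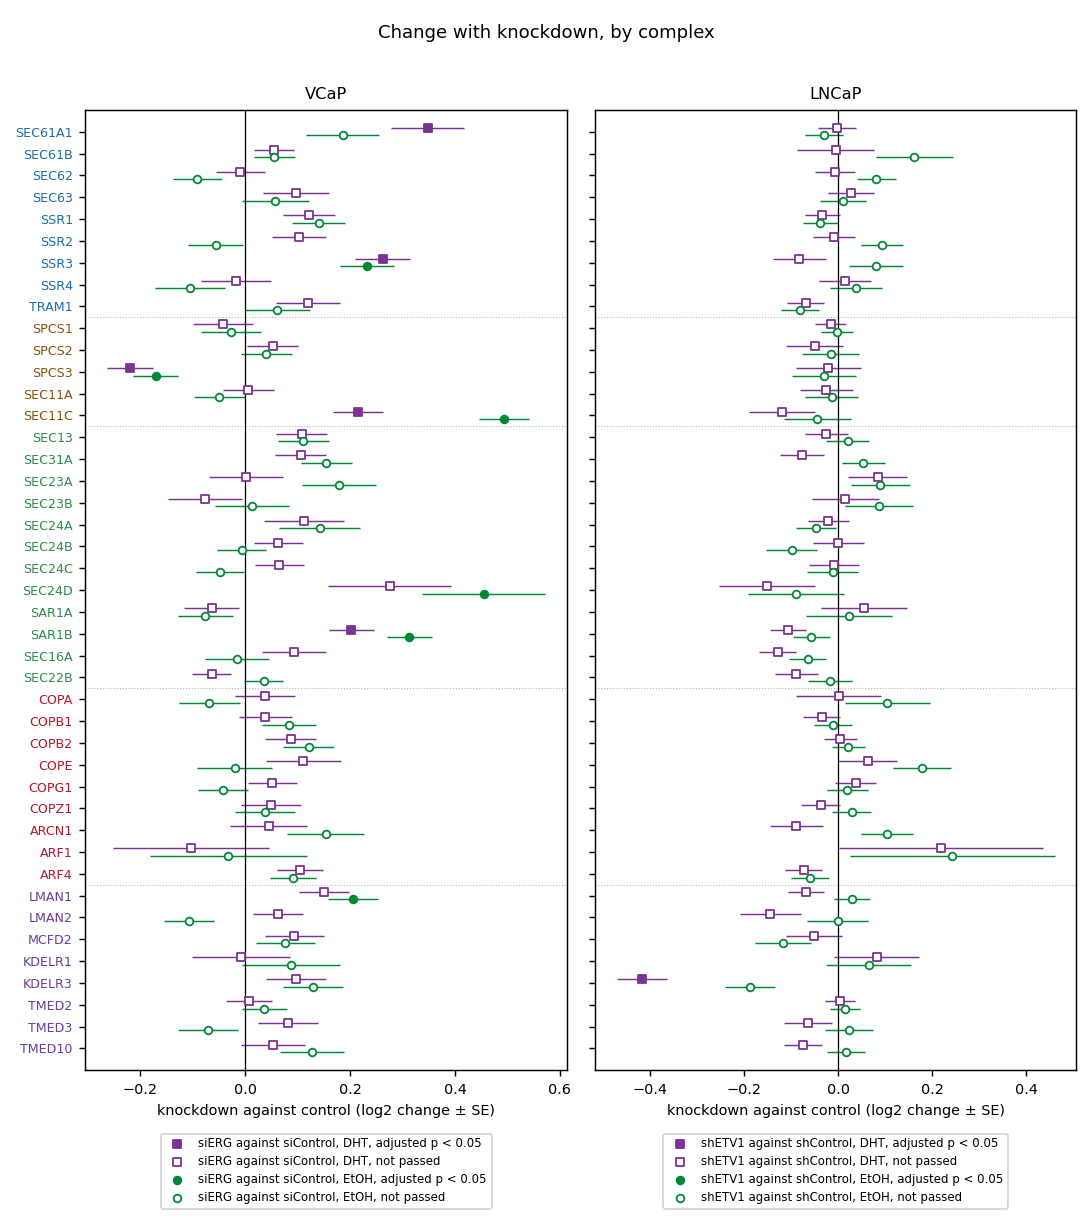
Change with knockdown against control (log2 units ± SE, n = 3 arrays per group) of the 43 genes, siERG in VCaP on the left and shETV1 in LNCaP on the right, with DHT as squares and with EtOH as circles. Filled marks have an adjusted p below 0.05: 5 genes with DHT and 6 with EtOH in VCaP, and KDELR3 with DHT in LNCaP.

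The DHT response itself was also compared between knockdown and control cells. In VCaP, 0 of 43 genes passed this interaction test in limma, where 0.288% of all genes did. An unadjusted p below 0.05 was found for 2 of the 43 and for 1401 of all 12840 genes. The strongest was SEC11C, whose DHT gain was 0.71 ± 0.05 in siERG and 0.99 ± 0.05 in siControl cells, a difference of -0.28 ± 0.07 (adjusted p = 0.157). Next was LMAN2, with 0.41 ± 0.05 in siERG and 0.24 ± 0.05 in siControl cells, a difference of 0.17 ± 0.07 (adjusted p = 0.392). In LNCaP, 0 of 43 passed, where 0.101% of all genes did. There 2 of the 43 and 962 of all 12823 genes had an unadjusted p below 0.05. KDELR3 came first with 0.21 ± 0.05 in shETV1 and 0.44 ± 0.05 in shControl cells, a difference of -0.23 ± 0.08 (adjusted p = 0.47), and ARCN1 second, with 0.28 ± 0.06 in shETV1 and 0.47 ± 0.06 in shControl cells, a difference of -0.19 ± 0.08 (adjusted p = 0.617). These tests do not show that the responses were alike.

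Neighbouring steps of the pathway were read from 4 further lists. Among genes of the signal recognition particle and oligosaccharyltransferase, which deliver chains to the translocon and attach sugars, 13 of 18 rose with DHT in VCaP siControl cells (72.2%) and 9 of 18 in LNCaP shControl cells (50%), and 0 fell in either. Of all genes 19.6% rose and 25.4% fell in the former, and 18.6% rose and 22.3% fell in the latter. SRPRB, a subunit of the receptor of that particle, gained 0.86 ± 0.06 and the oligosaccharyltransferase subunit STT3A 0.57 ± 0.04 in VCaP, while SRP19 gained 0.55 ± 0.04 and OSTC 0.54 ± 0.04 in LNCaP. Of 19 ER exit and tethering genes 12 rose (63.2%) and 3 fell (15.8%) in VCaP, where 19.6% and 25.4% of all genes did. In LNCaP 9 rose (47.4%) and 0 fell, where 18.6% and 22.3% of all genes did. The SNARE GOSR2 rose by 0.57 ± 0.04 and YIF1A by 0.85 ± 0.07 in VCaP, where MIA3, a receptor for bulky cargo such as collagen, changed by -0.94 ± 0.08 and CNIH4 by -0.36 ± 0.06, both falling. ERGIC2 rose by 0.56 ± 0.04 in LNCaP, and PREB, which activates SAR1, by 0.55 ± 0.06.

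Of 13 further COPI and Golgi ARF genes, 5 rose (38.5%) and 2 fell (15.4%) in VCaP, where 19.6% and 25.4% of all genes did. In LNCaP 6 rose (46.2%) and 0 fell, where 18.6% and 22.3% of all genes did. TMED9, of the p24 family, rose in both, by 0.75 ± 0.09 in VCaP and 0.49 ± 0.04 in LNCaP. ARFGAP3, which ends the ARF1 cycle, rose by 0.50 ± 0.04 in VCaP, where COPG2 and ARF5 fell, by 0.25 each, and GBF1, which starts the ARF cycle, rose by 0.71 ± 0.06 in LNCaP. The last list holds transcription factors and sensors of the ER stress and CREB3 systems, known to regulate secretory genes. Of these 7 of 11 rose (63.6%) and 1 fell (9.09%) in VCaP, where 19.6% of all genes rose and 25.4% fell. In LNCaP 6 of 10 rose (60%) and 0 fell, where 18.6% and 22.3% of all genes did. CREB3L2, a membrane-bound factor known in mouse cartilage to activate COPII genes, rose by 1.28 ± 0.06 (adjusted p = 5.02e-08) in VCaP and 0.86 ± 0.04 (adjusted p = 1.37e-08) in LNCaP. It read 2157, 1957 and 2019 with DHT, against 872, 856 and 769.8 with EtOH, in siControl cells, and 1929, 1831 and 1916 with DHT, against 1058, 1028 and 1020.3 with EtOH, in shControl cells. CREB3L4 rose by 0.81 ± 0.05 in VCaP, the dim CREB3L1 fell there (-0.67 ± 0.20), and ERN1, the ER stress sensor IRE1, rose by 1.42 ± 0.04 in LNCaP.

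Because the genes moved together, the promoters of the set were read for the binding letters of such factors. RefSeq windows (GRCh38.p14, from 250 bases before to 50 after each annotated start) were matched by symbol for 40 of the 45 genes, 56 windows in all. TRAM1, SPCS1, SEC24D, ARF4 and KDELR2 were not matched. Motifs were searched on both strands. The core of the unfolded protein response (UPR) element, TGACGTGG, which ATF6 and XBP1 can bind, was in at least 1 window of 11 of the 40 genes (27.5%). It was in 0.729% of all 35116 windows, in 1.05% of protein-coding genes and in 1.19% of the genes tested here. The 11 were SEC62, SSR3, SSR4, SEC23A, SEC24A, SEC16A, COPA, COPB1, COPB2, ARF1 and KDELR3, and of the genes on the 4 further lists 3 of 52 had it. Genes with several annotated starts have several windows and so more chances of a match.

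Shown are the surroundings of the core, 5′ to 3′ on the gene's strand, for the 5 genes in which it lies before the outermost annotated start. Capitals mark the core, which reads CCACGTCA where it lies on the other strand. In SEC62 (chr3:169966774-169966806, plus strand), COPB1 (chr11:14499836-14499875, minus strand), COPB2 (chr3:139389820-139389859, minus strand), ARF1 (chr1:228082676-228082707, plus strand) and KDELR3 (chr22:38468034-38468073, plus strand) the first base of the core lay 17, 48, 163, 16 and 46 bases before an annotated start.
SEC62: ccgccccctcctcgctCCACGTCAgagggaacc
COPB1: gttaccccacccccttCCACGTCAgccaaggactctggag
COPB2: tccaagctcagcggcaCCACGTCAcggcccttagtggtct
ARF1: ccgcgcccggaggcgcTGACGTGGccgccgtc
KDELR3: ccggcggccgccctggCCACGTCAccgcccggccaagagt

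COPB2 is shown with all 250 bases before its outermost start (chr3:139389681-139389930, minus strand), since it held the core at 2 places, the second of them across a start and not in this stretch.
COPB2: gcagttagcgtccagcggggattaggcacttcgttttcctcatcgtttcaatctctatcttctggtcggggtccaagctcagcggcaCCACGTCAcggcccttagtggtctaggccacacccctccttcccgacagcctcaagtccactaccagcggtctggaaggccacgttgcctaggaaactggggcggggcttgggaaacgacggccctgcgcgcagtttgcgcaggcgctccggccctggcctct

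Genes with the core had a lower median DHT change than genes without it, a difference that was not tested. The median DHT change of the 11 genes with it was 0.40, against 0.44 for the 28 measured genes without it, in VCaP siControl cells. In LNCaP shControl cells it was 0.24 with the core, against 0.32 without it. Both kinds overlapped over most of their range, 0.06 to 1.22 with the core and −0.15 to 0.99 without it in VCaP. KDELR3 and SSR3 have it and rose, whereas SEC62, 17 bases from its start, was among the least changed genes in both lines. The longer ER stress element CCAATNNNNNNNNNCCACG was in 0 of 40 genes, against 0.153% of tested genes, and in 0.0769% of all windows.

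An ETS site, CCGGAAGT, was in 11 of 40 genes (27.5%), against 4.14% of all windows, 6.97% of coding genes and 9.62% of tested genes. These were SSR3, SEC13, SEC31A, SEC24A, SEC24C, SAR1A, SEC16A, COPA, COPB2, COPG1 and ARF1, and of the genes on the further lists 4 of 52 had it. Their median change with siERG was −0.02 with EtOH, against 0.05 for the 28 genes without it, and 0.09 with DHT, against 0.05. Of the siERG calls SSR3 has the site, and SEC24D, which had no window, was not searched. The androgen response element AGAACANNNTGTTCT was in 0 of 40 genes and in 1 of all 35116 windows. Its first part, AGAACA, was in 4 genes (10%), against 14.9% of coding genes and 12.9% of tested genes, and in 14.8% of windows. AGAACA is contained in the longer androgen element, while neither the core nor the ETS letters contain the other. A match is a run of letters, not a bound site.

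**Figure D5:**
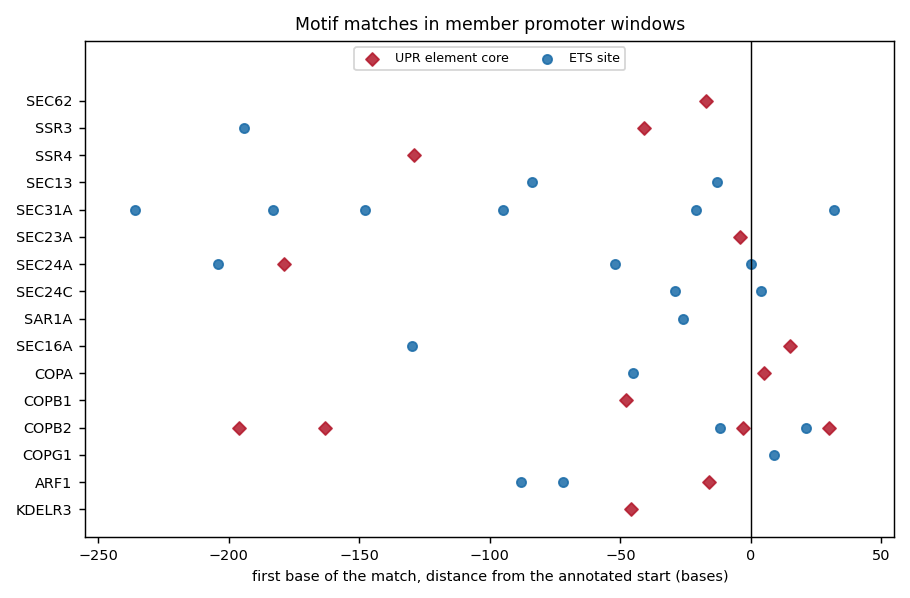
Position of each match to the UPR element core (diamonds) and the ETS site (circles) in the promoter windows of the genes that hold 1 or the other, as the distance in bases of its first base from an annotated start, the vertical line at 0. A match is drawn once for each annotated start whose window holds it, so COPB2, SEC31A, SEC13 and ARF1 show the same letters more than once.

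Most genes had several probe sets, 108 in all: 10 genes had 1, 33 had 2 or more, and 6 was the most for a gene. Within a gene, those that passed the intensity filter in a line mostly moved the same way with DHT. Dimmer probe sets, such as 1 of the 2 for COPB2, were left out of these counts of direction. In VCaP siControl cells those of SEC62 disagreed, 3 of 5 being higher and 2 lower, between −0.12 and 0.18. In LNCaP shControl cells SEC11A, COPA, KDELR1 and TMED3 had probe sets above the filter in both directions. SEC24D, whose gain was the greatest, had 3 probe sets that were all higher with DHT, by 0.76 to 1.23 in VCaP and by 0.74 to 1.29 in LNCaP. For SEC62 in siERG cells the mean of all its probe sets gave a change of −0.0047 in place of 0.15 ± 0.05. In siERG cells averaging probe sets ended the calls of COPA (0.16, adjusted p = 0.0719), COPB2 (0.19, adjusted p = 0.0775) and LMAN2 (0.24, adjusted p = 0.273) as well. It also ended the control cell calls of COPB2 (0.12, adjusted p = 0.253) and LMAN2 (0.12, adjusted p = 0.583) in VCaP. In LNCaP it ended those of COPB1 (0.15, adjusted p = 0.223), COPB2 (0.15, adjusted p = 0.288), COPE (0.24, adjusted p = 0.107) and TMED3 (0.07, adjusted p = 0.486). Without _x_at and _s_at probe sets the calls of SPCS2 (0.10, adjusted p = 0.566), TMED2 (0.34, adjusted p = 0.104) and TRAM1 (0.17, adjusted p = 0.0838) ended in VCaP siControl cells, and that of SPCS2 (0.07, adjusted p = 0.493) in LNCaP shControl cells. In siERG cells the calls of SPCS2, TMED2, TRAM1, SEC62 and the COPII gene SEC22B (0.045, adjusted p = 0.541) ended, and in shETV1 cells that of SPCS2.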

How the data were processed

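RNA of 8 groups, 3 arrays each, was hybridised to 24 Affymetrix HG-U133 Plus 2.0 arrays. The authors deposited 1 processed intensity per probe set and array, made from the scans by steps not given in the sources used here. The 54675 probe sets held 0 missing values. Of these, 42898 were named by the platform's probe annotation, 41097 for 1 gene and 1801 for several, and those for several were left out. Each gene was read from its probe set with the highest mean of log2(intensity + 16) over 24 arrays. An intensity filter asked for 3 or more of a line's 12 arrays above their own median, which left 12840 VCaP genes and 12823 LNCaP genes to test, 12305 of them shared.

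Changes were estimated with limma 3.58.1 in R 4.3.3, in 1 fit per line with 4 groups, and in 1 fit of all arrays for the difference between lines. Tests are two-sided moderated tests with Benjamini-Hochberg adjustment over all genes tested, and an adjusted p below 0.05 was the threshold. Per-array values are given for the 2 genes per complex with the smallest adjusted p for DHT in the control cells of each line, and for the 3 with the smallest adjusted p per knockdown comparison. Of the further lists, the 2 genes per list and direction with the smallest adjusted p for DHT in each line are named. Per-array values of SEC24D, SEC24B, SEC23A, SEC11A and ARF1 in other places were added after their values were seen. Those of CREB3L2 were also given outside these rules. KLK3, FKBP5, ERG and ETV1 served as checks. The genes, lists and motifs were chosen with earlier results of these data known. Same-lettered replicates correlated between −0.117 and 0.112 in VCaP and between −0.218 and 0.125 in LNCaP, as deviations from group means, so the letters were not used as pairs. The alternatives were the mean of all probe sets, only probe sets not ending in _x_at or _s_at, an unfiltered fit, an offset of 64, quantile normalization, centring on array medians, a replicate block, the GAPDH 3′/5′ ratio as a covariate, and leaving out each array. The fit was tested on simulated data. Batches were not analysed here.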

Additional observations from a re-analysis of the deposited data

Results flagged for a closer look

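For 15 genes the DHT response of control cells differed between the lines by a test of the difference itself, given here as LNCaP minus VCaP in log2 units. Smaller in LNCaP were SEC61A1 (−0.48), SEC23A (−0.47), SSR3 (−0.41), TMED10 (−0.38), SEC16A (−0.38), KDELR1 (−0.36), SEC31A (−0.34), SEC22B (−0.33), SSR1 (−0.30), SEC24A (−0.26), SEC63 (−0.24), SEC13 (−0.22) and SAR1B (−0.16). The difference was positive for SEC24B (0.55), which rose more in LNCaP, and for SEC11A (0.20), which fell in VCaP and did not pass in LNCaP. Of these, SEC13, SEC16A, SEC22B, SEC23A, SEC24B, SEC31A, SEC61A1, SSR3 and TMED10 passed under every alternative in which they could be tested. With 3 arrays per group, no single array was screened as standing apart from its group. The lines also differ in array scale and, by the titles, in the kind of RNA interference control (siControl or shControl). Neither can be told apart from the line here.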

How the results depend on the processing

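Counts of genes called among the 43 stayed within 1.5 times the reported count for the 4 DHT comparisons under every alternative run. With siERG and EtOH (6 as reported) the count was 3 with no filter, 2 with the GAPDH ratio as a covariate and 2 to 8 when 1 array was left out. With siERG and DHT (5) it was 2 without _x_at and _s_at probe sets, 0 with the GAPDH ratio and 3 to 8 when 1 array was left out. The VCaP interaction (0) gave 1 gene, SEC11C, under quantile normalization. With shETV1 and DHT (1) the count was 0 with the mean of all probe sets and 2 on arrays centred on their median, which added SEC16A. For the difference between lines (15) it was 5 without _x_at and _s_at probe sets, where 36 genes could be tested, and 22 under quantile normalization. Centring arrays on their median changed the calls over all genes with siERG and EtOH to 393 higher and 1167 lower, against 690 and 754, and those of the set to 3 and 1, against 5 and 1. Changes that turned sign were those of SPCS3 with siERG and EtOH without _x_at and _s_at probe sets (0.13), of SEC62 with DHT in siERG cells with the mean of all probe sets (−0.0047) and of COPZ1 with DHT in siERG cells with the GAPDH ratio (−0.018). Their cause was not tested.

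Of the 170 calls of single genes, 149 held with the mean of all probe sets, 153 with no filter, 170 with the offset of 64, 159 with quantile normalization, 166 with centring, 166 with the replicate block and 139 with the GAPDH ratio, and of 141 that could be tested 123 held without _x_at and _s_at probe sets. The replicate block, which treats same-lettered arrays as paired, called 38 genes with DHT in siControl cells, against 39, and 5 with siERG and EtOH, against 6. Signal near background limits ARF1, whose probe set lay between 37.9 and 126.6 on all arrays.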
